A study of Mus musculus with 6 samples.

Results

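The genes of 6 solute carrier families that move amino acids and related compounds across membranes (Slc1, Slc3, Slc6, Slc7, Slc36 and Slc38) were examined in mouse taste cells at the ages of 2 and 6 months. They were chosen by gene symbol alone, and 59 of the 23361 genes in the table of expression values matched. The RNA came from isolated taste cells of the circumvallate and foliate (CV/Fol) papillae, which carry the taste buds of the posterior tongue. All mice were C57BL/6 without further alleles or treatments, and the groups differed in age, with 3 libraries at 2 months and 3 at 6 months. Each library was a pool of cells from 4 mice at 2 months and from 3 mice at 6 months. The deposited table gives 1 FPKM value per gene and age (fragments mapped to a gene, scaled to the length of its transcript and to the size of the library), which is the authors' value over the libraries of that age. No replicate error therefore stands behind any value given here, and no difference between the ages was tested. Library depth is not known from such values.

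Amino acid transporters differ in what they carry and in what drives them. The Slc1, Slc6 and Slc38 proteins mostly couple uptake to sodium, and some Slc36 proteins couple it to protons. Many Slc7 proteins exchange an amino acid on one side of the membrane for another on the other side. Several Slc7 light chains reach the cell surface only when joined to a heavy chain of the Slc3 family. In taste buds, free amino acids are both nutrients and tastants, and glutamate, GABA and serotonin serve as signals between cells, so that their carriers belong to nutrition as well as to signalling.

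The tissue label was checked against marker genes. All 7 listed markers of type II cells, which hold the sweet, bitter and umami receptors, ranged from 10.3 to 148.5 FPKM at 2 months and from 14.6 to 125.9 FPKM at the older age. All 7 markers of type III cells in the table, the presynaptic cells, averaged 1 FPKM or more. Of the 4 listed markers of the glia-like type I cells, 3 did. Entpd2 was at 66.1 and 57.7 FPKM at 2 and 6 months, Kcnj1 at 9.25 and 7.71 FPKM and Ptgs1 at 8.91 and 10.2 FPKM. Krt5 and Krt14, keratins of the basal cells of the epithelium around and below the taste buds, were far higher. Krt5 was at 2180 and 1962 FPKM and Krt14 at 1287 and 1533 FPKM at 2 and 6 months. Not all 6 listed basal keratinocyte markers were. Itga6, at 29.4 and 29.5 FPKM, and Trp63, at 105.8 and 94.1 FPKM, lay within the range of the type II markers. In such bulk RNA, a lower value can come from fewer cells of a type or from less RNA per cell, and these cannot be told apart.

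Of the 59 genes, 30 averaged 1 FPKM or more over the 2 ages, the filter used for all changes below, and 54.2% of all genes in the table did. Of the other 29 genes, 16 averaged 0.1 FPKM or more and 13 less, and Slc6a7, Slc7a12 and Slc7a15 were listed at 0 in both ages. The summed FPKM of the 59 genes was 493.9 at 2 months and 492.2 at 6 months. The same 6 genes led at both ages in the same order, namely Slc6a8, Slc6a14, Slc38a2, Slc1a5, Slc3a2 and Slc6a6, and they held 61.7% of the sum at 2 months and 59.8% at 6 months. The family sums differed little between the ages. Slc6, the largest family with 19 genes, summed to 213.3 and 215.3 FPKM, and Slc38 to 86.3 and 85.0 FPKM. The Slc1 sum was 72.7 FPKM in the younger and 66.7 FPKM in the older mice, and the Slc7 sum was 64.0 and 66.9 FPKM. The Slc7 sum includes Slc7a6os, a neighbour of Slc7a6 that matched by its symbol and encodes no transporter, at 21.4 and 20.9 FPKM. Of the 59 genes, 24 share part of their span with another gene of the RefSeq table, such as Slc7a7 with Oxa1l and Slc38a6 with Trmt5, and reads of overlapping genes may not be told apart.

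**Figure D1:**
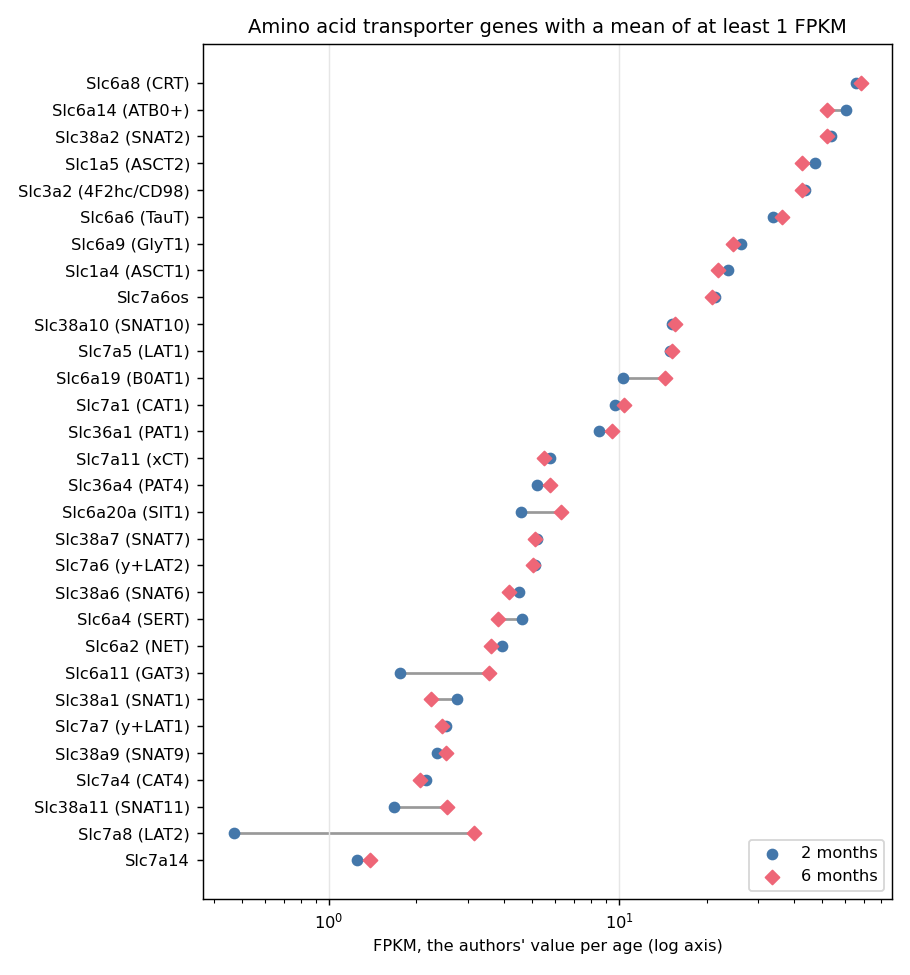
FPKM on a log axis of the 30 genes past the filter of 1 FPKM, ordered by that level, with circles for 2 months and diamonds for 6 months (1 value of the authors per age, no error bars). For most genes both symbols lie close together, and Slc7a8 and Slc6a11 have the widest gaps.

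**Figure D2:**
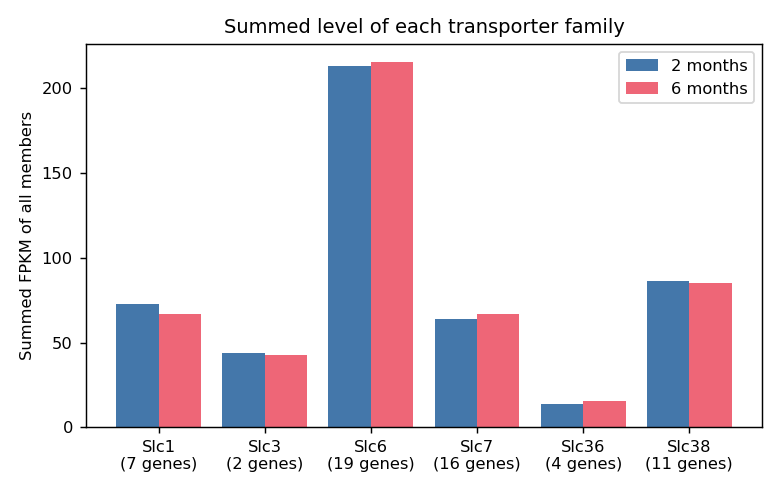
Summed FPKM of all genes of each family at 2 months (blue) and 6 months (red), with the number of genes under each name. The Slc6 family had the highest sum at both ages, 213.3 and 215.3 FPKM.

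The comparison of the ages asks which transporters were expressed at another level at 6 months. Changes are differences of log2(FPKM + 1), 6 minus 2 months, a scale that understates the change of weakly expressed genes. Among the 30 genes past the filter, 14 had a higher and 16 a lower value at 6 months, where 46.3% of all 12652 genes past this filter were higher. The median change was -0.02 for the transporters, with quartiles of -0.08 and 0.10, and -0.01 for all genes, with quartiles of -0.10 and 0.08. The change was smaller than 0.25 in size for 25 of the 30. A difference of at least 1.5-fold on this scale was taken as the limit for naming a gene as higher or lower. Slc7a8 and Slc6a11 were past it and higher at 6 months, which is 2 of 30 genes where 1.05% of all genes were past it in that direction. At 2-fold, Slc7a8 alone was higher, 1 of 30 genes against 0.561% of all genes. None of the 30 genes was lower by 1.5-fold, which 1.72% of all genes were. Slc7a8, counted as higher at both limits, passed the filter on its 6 month value alone. These counts come from 1 value per age, so they describe the table and carry no statement of significance.

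**Figure D3:**
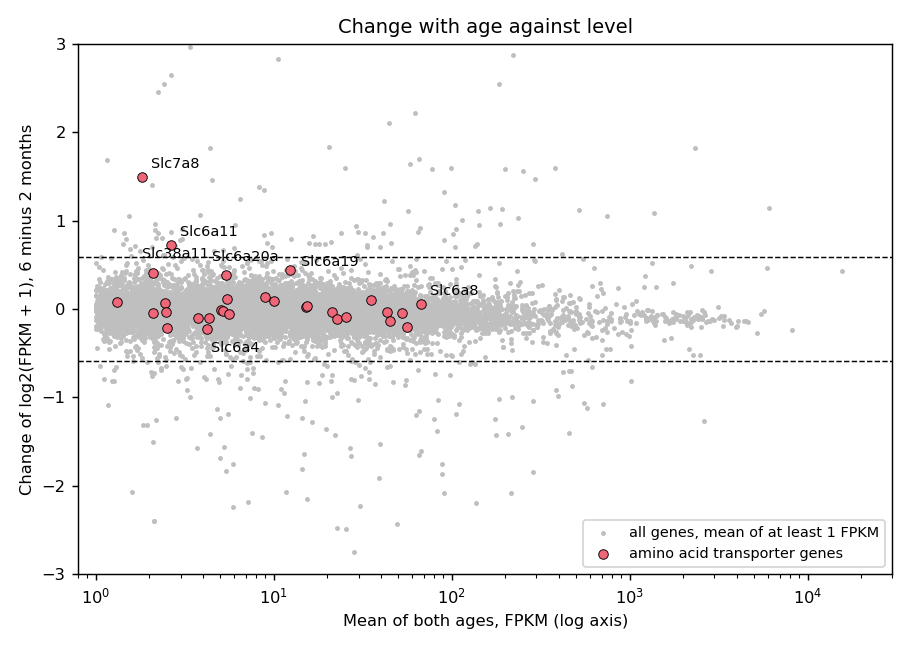
Difference of log2(FPKM + 1), 6 minus 2 months, against the mean FPKM of both ages on a log axis, for all genes past the filter (grey) and for the 30 transporter genes (red), with dashed lines at 1.5-fold. A further 88 genes lie beyond the axis limits of -3 and 3, and Slc7a8 and Slc6a11 are the red points above the upper line.

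The largest difference was that of Slc7a8, which encodes LAT2, a light chain that exchanges neutral amino acids. Its level went from 0.470 FPKM at 2 months to 3.16 FPKM, a value 6.71 times as high, and the difference was 1.499 on the log2(FPKM + 1) scale. A larger positive change was listed for 49 of the 12652 genes. Slc7a8 was also the single member under 1 FPKM at one of the ages among the 30, so it passed the filter on its 6 month value alone. It ranked 33rd among the 59 genes at 2 months and 24th at 6 months. Its span in GRCm38 is 54722215 to 54781886 on chromosome 14, where the RefSeq table of GRCm38.p6 lists no other gene.

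LAT2 works in a pair with the heavy chain Slc3a2 (4F2hc or CD98), which was at 43.7 FPKM at the younger and 42.7 FPKM at the older age. The other heavy chain, Slc3a1 (rBAT), was at 0.140 and 0.129 FPKM. Among the light chains, Slc7a5 (LAT1), a carrier of large neutral amino acids such as leucine, led with 15.0 and 15.2 FPKM. Slc7a11 (xCT), which takes up cystine in exchange for glutamate, was at 5.78 and 5.52 FPKM. Slc7a6 (y+LAT2) was at 5.11 and 5.06 FPKM and Slc7a7 (y+LAT1) at 2.53 and 2.45 FPKM; both exchange cationic for neutral amino acids. Slc7a8 was the light chain past 1.5-fold, while the other 4 past the filter had changes between -0.06 and 0.02 on the log2(FPKM + 1) scale. The 5 further light chains were all under 0.04 FPKM at both ages. Summed over the 10 light chains the level was 28.9 and 31.5 FPKM, and without Slc7a8 it was 28.4 and 28.3 FPKM. LAT2 made up 1.63% of the sum over all 10 at 2 months and 10.02% at 6 months. The level of LAT1 was 31.9 times that of LAT2 at 2 months and 4.83 times at 6 months. Slc3a2 was 1.51 times the summed light chains at 2 months and 1.36 times at 6 months.

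**Figure D4:**
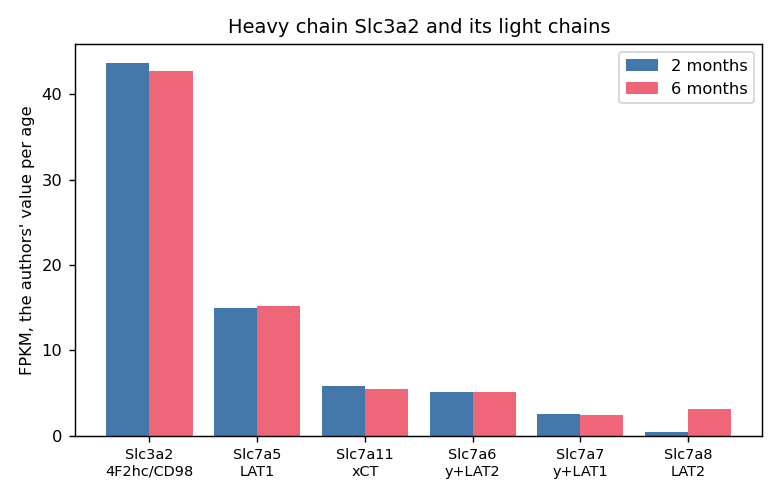
FPKM at 2 months (blue) and 6 months (red) of the heavy chain Slc3a2 and of the 5 light chains past the filter (1 value of the authors per age, no error bars). The bars of Slc7a8 stand at 0.470 and 3.16 FPKM, and the other 5 genes have nearly equal bars at both ages.

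The next largest difference was in the carriers of GABA. Slc6a11 (GAT3), which takes up GABA with sodium and chloride, went from 1.76 to 3.56 FPKM, a value 2.03 times as high at 6 months, and the difference was 0.73 on the log2(FPKM + 1) scale. A larger positive change was listed for 113 of the 12652 genes. Slc6a11 lies on chromosome 6 from 114131241 to 114249886 of GRCm38, a span in which RefSeq also places the noncoding gene Gm52916 and the pseudogene Gm8132. Slc6a13 (GAT2) and Slc6a12 (BGT1), which also carry GABA, were under 0.25 FPKM at both ages, below Slc6a11. Gad1 and Gad2, which make GABA, had values that differed in opposite directions. Gad1 was at 1.41 and 2.04 FPKM and Gad2 at 5.92 and 4.55 FPKM, and neither was past 1.5-fold. Slc32a1, which loads GABA into vesicles, was listed at 0 in both ages.

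The carriers of monoamines and glycine stayed nearer to their 2 month values. Slc6a4 (SERT), the serotonin carrier, was at 4.63 and 3.82 FPKM, and its change of -0.22 was the lowest of the 30 genes. Slc6a2 (NET), the carrier of noradrenaline, was at 3.94 and 3.62 FPKM. Slc6a3, the dopamine carrier, was at 0.127 and 0.112 FPKM. Slc6a9 (GlyT1), which takes up glycine, was at 26.4 and 24.6 FPKM.

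The most highly expressed member was the creatine carrier Slc6a8, at 65.7 and 68.2 FPKM at the 2 ages, a mean above that of 94.4% of all genes in the table. The taurine carrier Slc6a6 was at 33.9 and 36.5 FPKM. Slc6a14 (ATB0+), which takes up neutral and cationic amino acids, came second with 60.3 and 52.2 FPKM, a change of -0.21. The changes of Slc6a8 and Slc6a6 were 0.05 and 0.10.

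Among the remaining nutrient carriers of the Slc6 family, Slc6a19 (B0AT1) and Slc6a20a (SIT1), both known from the brush border of gut and kidney, had higher values at 6 months. Slc6a19, a carrier of neutral amino acids, was at 10.3 and 14.4 FPKM, a change of 0.45, and Slc6a20a, a carrier of proline, was at 4.58 and 6.28 FPKM, a change of 0.38. The copy Slc6a20b was at 0.131 and 0.0729 FPKM, and reads of similar copies can be split between them. Slc6a19 overlaps the noncoding gene Slc6a19os, and the counting is not stated to use strand. Slc38a11, an orphan of its family, was at 1.67 and 2.55 FPKM, a change of 0.41. With a lower limit for the change, 0.32 on the log2 scale in place of 0.58, Slc6a19, Slc6a20a and Slc38a11 joined Slc7a8 and Slc6a11. This made 5 of 30 genes higher at 6 months, against 2.95% of all genes, and 0 of 30 lower, against 4.23% of all genes. Among these 5, Slc7a8 passed the filter on its 6 month value alone.

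Glutamate and glutamine carriers were unevenly expressed. All 5 high-affinity glutamate carriers of the Slc1 family were under 1 FPKM at both ages. Slc1a3 (GLAST), a marker of the glia-like type I taste cells, had the highest values of these, 0.710 and 0.988 FPKM. The neutral carriers of the same family were abundant, with Slc1a5 (ASCT2), which takes up glutamine, at 47.3 and 42.8 FPKM and Slc1a4 (ASCT1) at 23.6 and 21.8 FPKM, changes of -0.14 and -0.11. Slc38a2 (SNAT2), a sodium-coupled carrier of small neutral amino acids including glutamine, was at 53.8 and 52.1 FPKM, and the related Slc38a1 (SNAT1) at 2.76 and 2.25 FPKM. Slc38a3 and Slc38a5 of system N were between 0.316 and 0.337 FPKM. Slc38a10 was at 15.2 and 15.6 FPKM and Slc38a6 at 4.53 and 4.17 FPKM.

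Carriers placed on lysosomes had changes of at most 0.14 in size. Slc38a9, an arginine sensor of the mTORC1 kinase on lysosomes, was at 2.36 and 2.54 FPKM. Slc38a7, which exports glutamine from lysosomes, was at 5.22 and 5.12 FPKM. Slc36a1, a proton-coupled carrier of small amino acids, was at 8.49 FPKM in the younger mice and at 9.43 FPKM in the older. Slc36a4 of the same family was at 5.22 and 5.75 FPKM. Slc36a2 and Slc36a3 were under 0.2 FPKM. Of the Slc7 genes grouped here with the cationic amino acid carriers, Slc7a1 (CAT1), the common carrier of arginine and lysine, was at 9.67 and 10.4 FPKM. Slc7a4 was at 2.16 and 2.06 FPKM and Slc7a14 at 1.246 and 1.38 FPKM, while Slc7a2 and Slc7a3 were under 0.5 FPKM at both ages.

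Genes that work with the transporters were compared in the same way. Of 33 genes of mTORC1 and amino acid sensing past the filter, none was past 1.5-fold, and the changes lay between -0.20 and 0.15, with a median of 0.00. Of 17 other amino acid and peptide carriers, none was past 1.5-fold on the log2(FPKM + 1) scale either. The lowest changes among them were those of Slc16a10, an aromatic amino acid carrier at 3.62 and 2.29 FPKM (-0.49), and Slc15a1, a peptide carrier at 5.33 and 3.66 FPKM (-0.44), and the highest was that of Slc15a4 (0.29). In the list of 12 transporter partners and regulators past the filter, 9 were lower and 3 higher, with a median change of -0.06. Of 19 genes of glutamate, glutamine and GABA metabolism past the filter, 10 were lower and 9 higher; Glul, which makes glutamine, was at 403.2 and 341.1 FPKM. Among the 11 genes past the filter in the list of glutathione synthesis, which also holds regulators and related enzymes, the median change was 0.04. Gclc of this list was at 44.8 and 49.8 FPKM. In each of these lists 0 genes passed 1.5-fold on the log2(FPKM + 1) scale, against 2.77% of all genes in either direction. In plain FPKM, Slc16a10 was 1.58 times as high at 2 months as at 6 months.

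The list of the amino acid response held Atf4, the factor that is translated when amino acids run short, with kinases that act before it and genes that act after it. Of its 24 genes past the filter, 16 had a higher and 8 a lower value at 6 months, where 46.3% of all genes were higher. The median change was 0.10. Atf3 was lower by more than 1.5-fold, at 17.1 and 6.79 FPKM, and so was Chac1, which breaks down glutathione, at 4.86 and 2.87 FPKM. That is 2 of 24 genes lower by 1.5-fold, against 1.72% of all genes, and 0 of 24 higher, against 1.05%. The highest change was that of Atf5 (0.44), at 23.0 and 31.5 FPKM. Atf4 itself was at 144.8 and 141.8 FPKM, and Asns, which makes asparagine, at 24.5 and 24.9 FPKM.

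**Figure D5:**
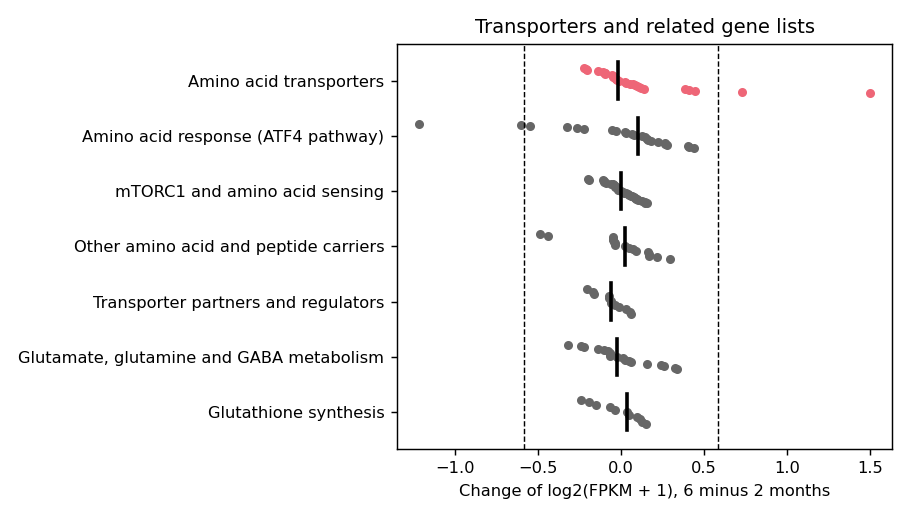
Difference of log2(FPKM + 1), 6 minus 2 months, of each gene past the filter in the transporter families (red) and in 6 related lists (grey), with a black bar at each median and dashed lines at 1.5-fold. The points right of the upper line are Slc7a8 and Slc6a11, and those left of the lower line are Atf3 and Chac1.

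The promoters of the transporters were read for the core of the amino acid response element, TGATGNAA, to which Atf4 and its partners bind. The RefSeq promoters of GRCm38.p6, 250 bases before to 50 bases after a start, were at hand for 23 of the 30 genes. Slc6a8, Slc1a5, Slc6a6, Slc7a5, Slc6a2, Slc38a1 and Slc7a4 had none and were not searched. A match on either strand was found for 3 of the 23 (13.0%), namely Slc7a11, Slc1a4 and Slc7a7, and for 2.79% of the 9250 genes past the filter that had a promoter sequence. These 3 promoters are shown with that of Slc7a8, the gene with the largest change, which held no match. Capitals mark the motif or its reverse complement TTNCATCA, and each sequence runs 5′ to 3′ in the direction of the gene.
Slc7a11, chr3:50443564-50443863, minus strand: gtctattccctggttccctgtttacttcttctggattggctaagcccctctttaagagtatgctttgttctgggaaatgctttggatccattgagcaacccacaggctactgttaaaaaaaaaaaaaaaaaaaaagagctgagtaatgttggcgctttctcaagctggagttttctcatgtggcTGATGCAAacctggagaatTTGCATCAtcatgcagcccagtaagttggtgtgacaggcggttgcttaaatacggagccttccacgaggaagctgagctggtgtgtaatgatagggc
Slc1a4, chr11:20332664-20332963, minus strand: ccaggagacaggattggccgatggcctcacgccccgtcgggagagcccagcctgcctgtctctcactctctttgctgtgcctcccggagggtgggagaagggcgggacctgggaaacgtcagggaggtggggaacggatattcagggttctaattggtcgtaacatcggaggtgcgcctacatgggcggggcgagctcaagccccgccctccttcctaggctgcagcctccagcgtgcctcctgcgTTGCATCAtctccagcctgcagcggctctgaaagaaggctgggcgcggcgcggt
Slc7a7, chr14:54417895-54418194, minus strand: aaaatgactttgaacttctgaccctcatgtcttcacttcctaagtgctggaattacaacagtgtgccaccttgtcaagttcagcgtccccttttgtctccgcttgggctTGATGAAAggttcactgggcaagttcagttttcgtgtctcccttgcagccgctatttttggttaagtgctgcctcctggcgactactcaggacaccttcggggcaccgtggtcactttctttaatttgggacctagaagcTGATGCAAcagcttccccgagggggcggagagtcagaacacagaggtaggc
Slc7a8, chr14:54781837-54782136, minus strand: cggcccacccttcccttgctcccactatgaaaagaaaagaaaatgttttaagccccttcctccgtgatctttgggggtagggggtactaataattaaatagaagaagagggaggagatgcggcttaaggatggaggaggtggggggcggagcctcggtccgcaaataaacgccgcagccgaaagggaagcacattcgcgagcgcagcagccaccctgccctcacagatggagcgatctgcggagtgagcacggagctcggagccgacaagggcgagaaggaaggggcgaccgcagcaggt
In Slc7a11 the matches began 66 and 47 bases before the start and lay on opposite strands, and in Slc1a4 the match began 4 bases before it. The promoter of Slc7a7 shown, of the 5 in the table, held matches that began 141 bases and 1 base before the start. The changes of these 3 genes were -0.06, -0.11 and -0.03. A match describes the letters in this window and shows no binding.

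Markers of other cells differed between the ages as well. For comparison, 1.05% of all genes past the filter were higher and 1.72% lower by at least 1.5-fold, and 46.3% had any higher value at 6 months. All 7 skeletal muscle markers past the filter were higher at 6 months, 5 of them by at least 1.5-fold, and the 10 listed genes summed to 24.3 and 38.2 FPKM, with the heavy chains Myh1, Myh2 and Myh4 under 0.3 FPKM. Of the 6 adipocyte markers, Fabp4 was at 0.692 and 3.48 FPKM and the other 5 were under 0.5 FPKM, with Adipoq under 0.1 FPKM at both ages. Of the 16 cornified keratinocyte markers past the filter, 11 were lower at 6 months, 9 of them by at least 1.5-fold, and the 17 in the table summed to 7358 and 5730 FPKM. The 12 salivary gland genes summed to 187.0 and 83.8 FPKM, of which Lipf held 83.7 and 14.7 FPKM. Of the 8 past the filter, 7 were lower at 6 months, 2 of them by at least 1.5-fold. The other, Dcpp2, was higher by more than 1.5-fold, at 1.45 and 3.28 FPKM. In plain FPKM, Amy1, Aqp5 and Dcpp3 were 1.57, 1.55 and 1.51 times as high at 2 months as at 6 months. Of the 6 fibroblast markers, 2 passed the filter, and Dcn was lower by 1.5-fold, at 42.0 and 27.3 FPKM. Pdgfra was at 1.10 and 1.05 FPKM, and Col1a1, Col1a2, Col3a1 and Lum were at 0.144 FPKM or less at both ages. None of the 5 leukocyte, 1 endothelial, 2 nerve, 6 basal keratinocyte and 3 type I taste cell markers past the filter differed by 1.5-fold. All 4 Y-linked genes were higher at 6 months and summed to 19.5 and 35.2 FPKM. The part of these cells, and of the share of male mice, in the values of Slc7a8 and Slc6a11 was not tested. The median change was 0.16 for the 7 type III markers and -0.03 for the 7 type II markers, and none of these 14 genes was past 1.5-fold. For the 3 type I markers past the filter the median was -0.19, with 2 lower and 1 higher.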

How the data were processed

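The data were RNA-sequencing values of CV/Fol taste cells, from 3 pooled libraries at 2 months and 3 at 6 months. Reads had been mapped by the authors to the GRCm38/mm10 genome with TopHat2 2.0.7 and RefSeq genes quantified with Cufflinks 2.1.1, and the authors deposited 1 FPKM value per gene and age. The 6 month column was recognised by the letter B of the sample titles. The table also holds the authors' unadjusted p-value of each gene from Cuffdiff, which was not used here. With 1 value per age no test was possible, and no SD, replicate check or depth is given.

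Genes were matched by symbol. Changes were differences of log2(FPKM + 1), 6 minus 2 months, for genes that averaged 1 FPKM or more, and 1.5-fold on that scale was the limit for a call. The arithmetic of the call was tested on a simulated table with known folds, which says nothing about replicate error. Any transporter gene and any cell type marker could be named. Of the other lists, those past the limit and the largest changes could be, and Asns, Atf4, Gad1, Gad2, Gclc, Glul and Slc32a1 were named for their role after their values were seen. Some listed genes are not reported here. The members and lists were chosen with earlier results of these data known. Positions, overlaps and promoters come from RefSeq tables of GRCm38.p6. Alternatives were other filters, folds, scalings and a pseudocount of 0.1. Calculations used Python 3.11.15, numpy 2.4.6 and pandas 2.3.3.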

Additional observations from a re-analysis of the deposited data

How the results depend on the processing

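No paired analysis was possible because each age is represented by 1 value per gene, and for the same reason no fit without a replicate was run. The number of transporter genes past the filter was 30, with 56 when any value above 0 was enough and 19 at a mean of at least 5 FPKM. The number higher by 1.5-fold was 2, and it was 1 (Slc7a8) at 2-fold, 5 when the limit was 0.32 on the log2 scale and 0 at a mean of at least 5 FPKM, a filter that removes Slc7a8 and Slc6a11. The number lower was 0 under every alternative run. With a pseudocount of 0.1 the change of Slc7a8 was 2.51 and that of Slc6a11 was 0.98. Multiplying the 6 month values by 1.02 gave both ages the same upper quartile, moved the median of the transporters from -0.02 to 0.00 and that of all genes from -0.01 to 0.01, and turned the sign of 1 of the 30 genes, Slc7a6. Values under 1 FPKM rest on few reads, so ratios of such genes are the least certain.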
